A study of Zea mays with 6 samples.

Results

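Sucrose made in a maize leaf leaves its source cells and enters the phloem through 2 kinds of membrane transporter, and 4 genes of these kinds are described here: sweet13a (Zm00001d023677), sweet13b (Zm00001d023673) and sweet13c (Zm00001d041067), which encode SWEET sugar uniporters, and sut1 (Zm00001d027854), which encodes a proton-coupled sucrose symporter. They were chosen by identifier from 46430 genes listed, though with earlier results of these data known. All 4 passed the filter on low counts that left 22135 genes for testing. The third leaf of seedlings was profiled by RNA sequencing in the inbred lines B73, labelled wild type, and W9706, both on day 7 of drought, with 3 libraries for each line. The lines thus shared the drought treatment, watered plants were not analysed here, and the comparison is of W9706 with B73 under drought. The labels give no plant, beaker or day for the replicates, so the spread that p-values rest on is that between libraries and may be technical only.

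SWEET proteins let sucrose move down its gradient across the plasma membrane. In maize leaves the SWEET13 paralogs act in the bundle sheath, where they release sucrose into the cell wall space next to the vein. SUT1 then takes sucrose up into the phloem against its gradient, using the proton gradient as the driving force. Maize plants that lack SUT1, or that lack all of the SWEET13 paralogs, are stunted and keep sugars and starch in their leaves.

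Libraries held 21084151 to 32088105 counts assigned to genes. Unmapped reads made up 12.7% to 13.8% of reads in each library. Reads outside any listed gene made up 3.7% to 3.8% in B73 and 4.2% to 4.3% in W9706, so the lines did not overlap in this share. Its cause was not tested. Levels are given as CPM, edgeR's count scaled by library size, here with TMM factors, which were 0.893 to 0.922 in B73 and 1.10 to 1.11 in W9706, so this scaling lowered W9706 against B73 for every gene. With library size alone the median log2 fold change over all tested genes was 0.29, and with TMM it was 0.01. The counts of every pair of libraries differed by more than sampling noise, with a chi-square per degree of freedom of at least 9.26, so none was counted as a repeat of another. Leaf and other tissue markers were not analysed here, because 0 of the 44146 nuclear identifiers matched the gene table used for names.

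Of the 4 genes, 1 passed the test of W9706 against B73: sweet13b fell in W9706 to 0.265 times its level in B73. For sweet13a, sweet13c and sut1 the edgeR quasi-likelihood test gave no call at a Benjamini-Hochberg adjusted p under 0.05 over all genes tested. Calls in either direction were made for 34.2% of all genes tested, rises for 15.2%, falls for 19.0% and falls of over 2-fold for 8.30%. A count of 1 in 4 is near that background and says nothing particular of the 4 genes together. In these bulk leaf samples, fewer cells of a type and less RNA per cell cannot be told apart.

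**Figure D1:**
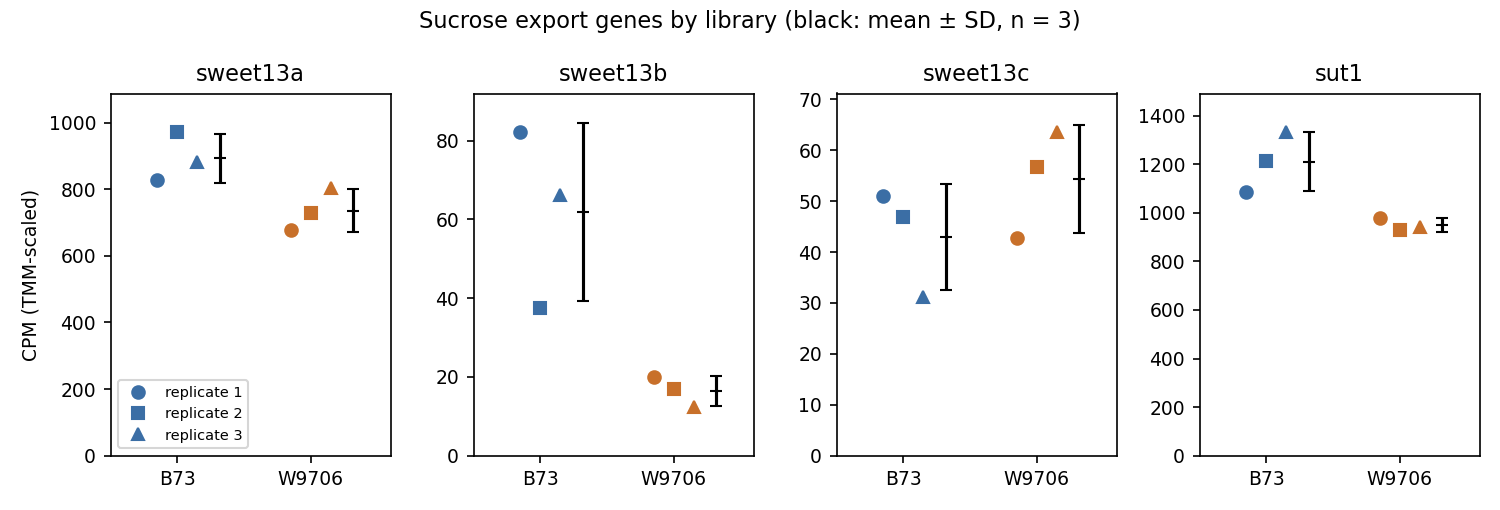
TMM-scaled CPM of each gene by library (vertical axes from 0, a scale for each gene), with B73 in blue and W9706 in orange, the symbol giving the replicate number and the black mark the mean ± SD (n = 3). The W9706 libraries lie at 12.4 to 19.96 CPM for sweet13b, all below the B73 libraries at 37.6 to 82.1 CPM, while the lines overlap for sweet13c.

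sweet13a, the paralog with most of the reads, had 19902, 21593 and 16567 counts in B73 and 18825, 20558 and 28341 counts in W9706. Here and throughout, values of single libraries are in the order of replicate number. On the TMM scale these were 827, 971 and 881 CPM in B73 and 677, 727 and 803 CPM in W9706. The 3 W9706 libraries lay below the 3 B73 libraries on that scale, but by share of the library total the lines overlapped, with B73 at 0.0747% to 0.0894% and W9706 at 0.0751% to 0.0883%. Means were 893 ± 72.8 CPM in B73 and 736 ± 63.5 CPM in W9706 (mean ± SD, n = 3 for each line). The log2 fold change was -0.28 ± 0.14 (SE) with a 95% interval from -0.59 to 0.03 and an edgeR adjusted p of 0.15. With library size alone the log2 fold change was 0.0038, so its direction rests on the scaling. By read count, without correction for gene length, sweet13a ranked 91st to 120th of all genes in the 6 libraries.

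sweet13b had 1978, 836 and 1245 counts in B73 and 555, 479 and 438 counts in W9706. These were 82.1, 37.6 and 66.2 CPM in B73 and 19.96, 16.9 and 12.4 CPM in W9706. The lines did not overlap, and B73 replicate 2 was the B73 library nearest to W9706. Means were 62.0 ± 22.6 CPM in B73 and 16.4 ± 3.80 CPM in W9706 (mean ± SD, n = 3 for each line). The log2 fold change was -1.92 ± 0.31 (SE), and the edgeR adjusted p was 0.00447. The 95% interval ran from -2.66 to -1.17, so the level in W9706 was 0.158 to 0.443 times that in B73. Among all genes tested, 3.10% had a more negative log2 fold change. The groups also stayed apart by share of the library total, with B73 at 0.00346% to 0.00743% and W9706 at 0.00137% to 0.00222%. With library size alone the log2 fold change was -1.63, with an edgeR adjusted p of 0.006.

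sweet13c had 1228, 1041 and 588 counts in B73 and 1186, 1605 and 2241 counts in W9706. These were 51.0, 46.8 and 31.3 CPM in B73 and 42.7, 56.8 and 63.5 CPM in W9706. B73 replicate 3 was the lowest of the 6 libraries, and W9706 replicate 1 lay among the B73 libraries. Means were 43.0 ± 10.4 CPM in B73 and 54.3 ± 10.6 CPM in W9706 (mean ± SD, n = 3 for each line). The log2 fold change was 0.34 ± 0.21 (SE), with a 95% interval from -0.17 to 0.84 and an edgeR adjusted p of 0.265. With library size alone the log2 fold change was 0.62 (edgeR adjusted p of 0.0504), and without B73 replicate 3 it was 0.16 with TMM.

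sut1 had 26150, 27040 and 25055 counts in B73 and 27272, 26234 and 33179 counts in W9706. These were 1086, 1216 and 1332 CPM in B73 and 981, 928 and 940 CPM in W9706. On this scale the 3 W9706 libraries lay below the 3 B73 libraries, while by share of the library total they lay inside the B73 range, at 0.102% to 0.109% against 0.0982% to 0.119%. Means were 1211 ± 123 CPM in B73 and 950 ± 27.8 CPM in W9706 (mean ± SD, n = 3 for each line). The log2 fold change was -0.35 ± 0.14 (SE), with a 95% interval from -0.67 to -0.03, an unadjusted p of 0.0341 and an edgeR adjusted p of 0.0835. DESeq2 called this difference, with a log2 fold change of -0.35 and an adjusted p of 0.0123. With library size alone the log2 fold change was -0.066, with an edgeR adjusted p of 0.711. sut1 ranked 66th to 84th of all genes by read count.

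On the TMM scale 3 of the 4 genes (sweet13a, sweet13b and sut1) had lines that did not overlap, where 50.6% of all genes tested did not overlap. By share of the library total 2 of the 4 (sweet13b and sweet13c) did not overlap, where 60.7% of all genes tested did not. Under the 4 scalings plotted sweet13b stayed called and the other genes uncalled. Library size alone raised the log2 fold changes of all 4 genes by a like amount, and only that of sweet13a changed sign.

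**Figure D2:**
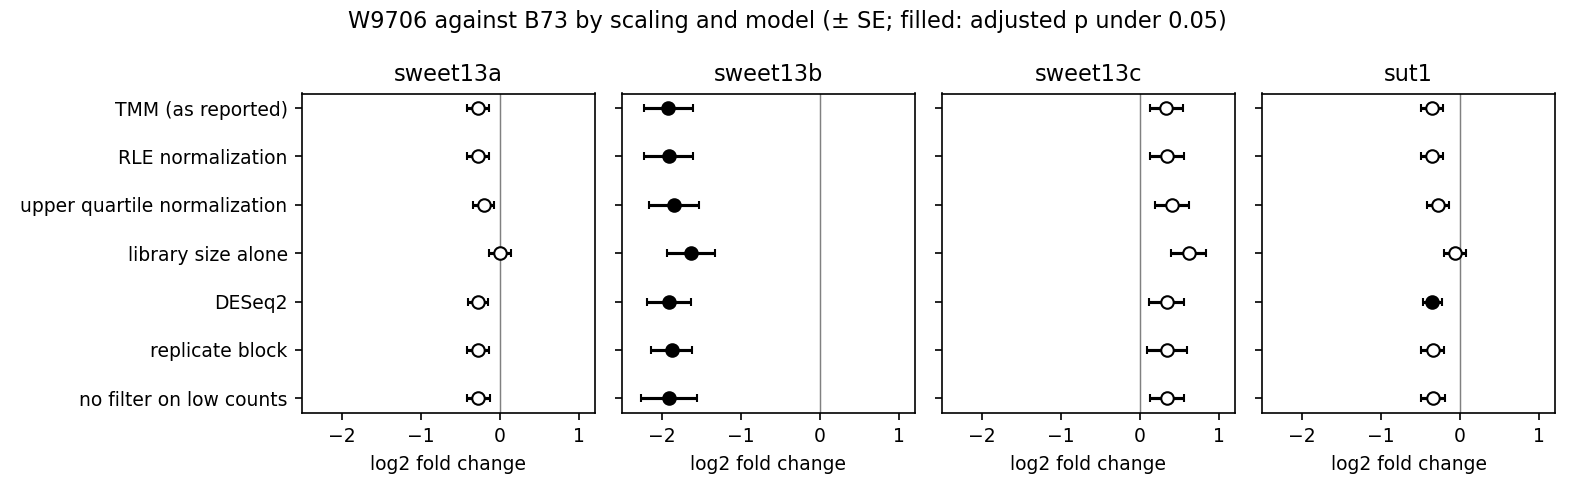
log2 fold change of W9706 against B73 for each gene (horizontal axes, ± SE) under 4 scalings, DESeq2, the fit with replicate number as a block and the fit with no filter on low counts, with filled points at an adjusted p under 0.05. sweet13b lies between -1.92 and -1.63 with filled points throughout, sut1 is filled with DESeq2 alone, and sweet13a is at 0.0038 with library size alone.

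**Figure D3:**
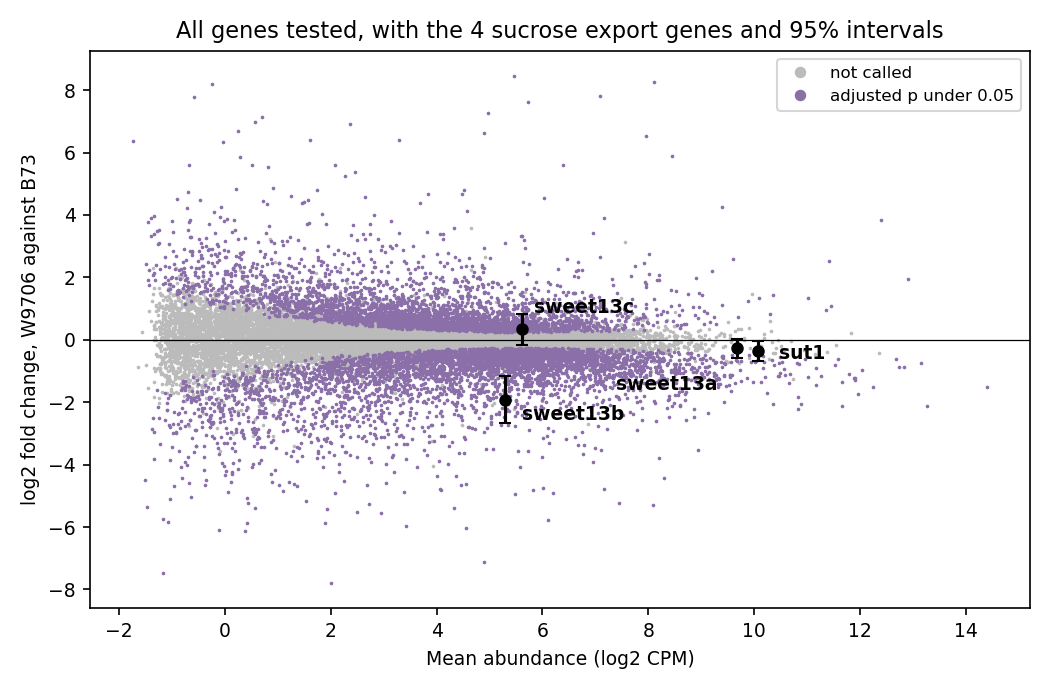
log2 fold change of W9706 against B73 (vertical axis) by mean abundance in log2 CPM (horizontal axis) for the 22135 genes tested, with called genes in purple and the 4 sucrose export genes in black with 95% intervals. sweet13b lies in the lower part of the cloud at -1.92, and the other genes lie between -0.35 and 0.34.

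The paralogs are related genes, and tables in this layout count reads with a single alignment, so reads that the paralogs have in common may be missing. The level of each paralog, the division of counts between the paralogs, their sum and the ratio of that sum to sut1 are therefore uncertain. Shares are of read counts without correction for gene length. Whether reads of W9706 align to these B73 gene models as readily as reads of B73 was not tested.

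Summed over the paralogs, SWEET13 had 23108, 23470 and 18400 counts in B73 and 20566, 22642 and 31020 counts in W9706. On the TMM scale these were 960, 1055 and 978 CPM in B73 and 740, 801 and 879 CPM in W9706. The W9706 libraries lay below the B73 libraries, with means of 998 ± 50.6 CPM in B73 and 807 ± 69.9 CPM in W9706 (mean ± SD, n = 3 for each line). The log2 fold change of the sum was -0.31 ± 0.13 (SE) and did not pass the edgeR test (adjusted p of 0.11). DESeq2 called the sum at -0.30 with an adjusted p of 0.0281, and with library size alone the log2 fold change was -0.024 (edgeR adjusted p of 0.896).

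sweet13a held most SWEET13 reads in both lines. Its share was 86.1%, 92.0% and 90.0% in B73 and 91.5%, 90.8% and 91.4% in W9706. The lines overlapped in this share, with means of 89.4 ± 2.99% in B73 and 91.2 ± 0.39% in W9706 (SD, n = 3 for each line; exact two-sided permutation p of 0.4). The difference of 1.84 percentage points was 0.211 without B73 replicate 1 and 3.15 without B73 replicate 2. Shares and ratios need no scaling between libraries.

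In the shares of the minor paralogs, sweet13b and sweet13c, the lines did not overlap, in opposite directions. Shares are not independent, since a lower share of sweet13b raises those of the other paralogs. The level of sweet13c overlapped between the lines in CPM and was not called (edgeR adjusted p of 0.265). sweet13b held 8.56%, 3.56% and 6.77% of SWEET13 counts in B73 and 2.70%, 2.12% and 1.41% in W9706. The highest W9706 share had a 95% Wilson interval of 2.49% to 2.93%, and the lowest B73 share one of 3.33% to 3.81%, which cover counting error only. Means were 6.30 ± 2.53% in B73 and 2.08 ± 0.64% in W9706 (SD over 3 libraries). sweet13c held 5.31%, 4.44% and 3.20% in B73 and 5.77%, 7.09% and 7.22% in W9706, with means of 4.32 ± 1.06% and 6.69 ± 0.81% (SD, n = 3). Here the lines did not overlap, but the Wilson intervals of the nearest libraries did, at 5.03% to 5.61% in B73 replicate 1 and 5.46% to 6.09% in W9706 replicate 1. The exact two-sided permutation p was 0.1 for each of these 2 shares, the smallest that 3 against 3 libraries allow, and 0.14 after adjustment over the 7 shares and ratios compared.

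**Figure D4:**
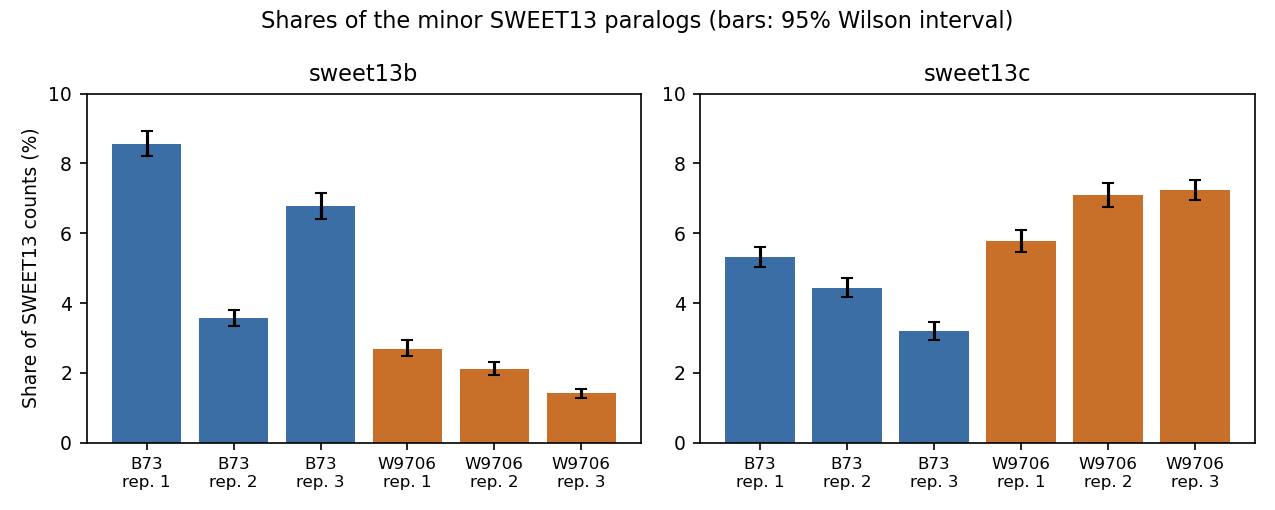
Share of SWEET13 read counts (percent, vertical axes from 0) held by sweet13b and sweet13c in each library, with 95% Wilson intervals and the lines in blue (B73) and orange (W9706). The sweet13b share is 3.56% to 8.56% in B73 and 1.41% to 2.70% in W9706, and the B73 and W9706 shares of sweet13c are 3.20% to 5.31% and 5.77% to 7.22%.

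The same counts can be read as ratios within a library. For each sweet13c count there were 1.61, 0.803 and 2.12 sweet13b counts in B73 and 0.468, 0.299 and 0.196 in W9706. Thus sweet13b had more counts than sweet13c in B73 replicates 1 and 3, and fewer in B73 replicate 2 and in the 3 W9706 libraries. On average over log2 ratios, the ratio of sweet13b to sweet13c was 4.64 times as high in B73 as in W9706.

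For each sweet13b count there were 10.1, 25.8 and 13.3 sweet13a counts in B73 and 33.9, 42.9 and 64.6 in W9706, a ratio 3.01 times as high in W9706. For each sweet13c count there were 16.2, 20.7 and 28.2 sweet13a counts in B73 and 15.9, 12.8 and 12.6 in W9706, a ratio 0.648 times that in B73. The lines did not overlap in any of these 3 ratios of paralogs, and each had an exact two-sided permutation p of 0.1, the lowest this design allows (0.14 when adjusted). The ratios restate the counts behind the shares and are not separate results. How often shares or ratios of other genes do not overlap was not tested. The ratio of sweet13a to sweet13c came close between the lines, at 16.2 in B73 replicate 1 and 15.9 in W9706 replicate 1.

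The count of all SWEET13 paralogs relative to sut1 overlapped between the lines. For each sut1 count there were 0.884, 0.868 and 0.734 SWEET13 counts in B73 and 0.754, 0.863 and 0.935 in W9706. The mean log2 ratio was 0.037 higher in W9706 (exact two-sided permutation p of 0.7), which does not show that it is equal. Its sign turned without B73 replicate 3, to -0.048, and without W9706 replicate 3, to -0.034.

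The genes also differed in how much they varied between libraries of a line. The SD of log2 CPM within lines was 0.11 for sut1 and 0.12 for sweet13a, below the median of 0.20 over all genes tested. It was 0.34 for sweet13c and 0.48 for sweet13b, and 85.5% of genes tested had a smaller SD than sweet13b. Both genes of smaller spread had at least 16567 counts in each library, while sweet13b and sweet13c had 438 to 2241. The lowest count, 438 for sweet13b in W9706 replicate 3, had a 95% interval for counting error of 398 to 481. Within B73, the sweet13b intervals were 1892 to 2067 in replicate 1 and 780 to 895 in replicate 2. The cause of the larger spread of sweet13b and sweet13c was not tested.

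Strand columns held near-equal parts of the reads of each gene, as the library kit does not mark strand. The first strand column held 43.2% to 51.4% of stranded sweet13b counts and 48.7% to 49.7% of sut1 counts. The log2 fold change of sweet13b was -1.93 from the first strand column and -1.90 from the second, with edgeR adjusted p of 0.00635 and 0.00521.

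Genes most like the major transporters in pattern were sought by Pearson correlation of log2 CPM over the 6 libraries, as a description of libraries that share their scaling and their line. The gene most like sweet13a among 22131 was Zm00001d042065 (r = 0.997), at 6.48 ± 1.03 CPM in B73 and 4.46 ± 0.64 CPM in W9706 (SD over 3 libraries), which did not pass the edgeR test (adjusted p of 0.0612). A correlation above 0.95 with sweet13a was found for 140 genes. The gene most like sut1 was Zm00001d029566 (r = 0.996), at 2.83 ± 0.58 CPM in B73 and 1.79 ± 0.04 CPM in W9706 (SD over 3 libraries, edgeR adjusted p of 0.0693), and 310 genes had a correlation above 0.95 with sut1. With 22131 genes searched over 6 libraries, a high maximum says little. How many genes pass 0.95 for other genes was not tested.

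Identifiers of B73 gene models run broadly in number along the chromosomes, but no coordinates were used here. In number, sweet13a and sweet13b lie 4 apart. Of the 5 listed genes other than these within 5 of sweet13b in number, 3 were tested and 2 fell in W9706. These 2 are given in detail because they were called, a choice made after their values were seen. The other tested gene, Zm00001d023671, was higher in W9706 without a call, at 0.39 ± 0.29 (SE) in log2 with an edgeR adjusted p of 0.326. Zm00001d023669 had 72.8 ± 20.9 CPM in B73 and fell to 29.6 ± 14.3 CPM (SD, n = 3), a difference of -1.29 ± 0.36 (SE) in log2 with an edgeR adjusted p of 0.0333. Zm00001d023675, which lies between sweet13b and sweet13a in number, fell from 2.30 ± 0.91 CPM to 0.93 ± 0.08 CPM (SD, n = 3), a difference of -1.30 ± 0.35 (SE) in log2 with an edgeR adjusted p of 0.0216. Of the 6 listed within 5 of sweet13a, 3 were tested and 1 fell, which is Zm00001d023675 again. With 1 library fewer the log2 fold changes were -1.75 to -1.03 for Zm00001d023669 and -1.52 to -0.94 for Zm00001d023675, while the number of calls over all genes was 5133 to 6751. The call of Zm00001d023669 was lost without B73 replicate 1, 2 or 3 or W9706 replicate 1 or 2 (edgeR adjusted p of 0.0516 to 0.104) and with library size alone (0.0552). The call of Zm00001d023675 was lost without B73 replicate 1 or any 1 of the W9706 replicates (edgeR adjusted p of 0.0512 to 0.0781). Near sut1, 4 of 10 were tested, with 0 higher and 1 lower and log2 fold changes from -0.54 to 0.21. Near sweet13c, 6 of 9 were tested, with 4 higher and 1 lower and log2 fold changes from -0.66 to 1.65. Over all genes tested 15.2% were higher and 19.0% lower, and counts this small are a description that was not tested against those shares. The files and the gene table used here pair none of these neighbours with a name.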

How the data were processed

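Per the labels' protocols, RNA of the third leaf was made into libraries with the NEBNext Ultra kit. The values deposited by the authors are raw whole-number read counts, in the layout of a STAR gene count table, and the submitters' processing notes name STAR. No source used here gives the aligner's version, the build or the gene annotation. The unstranded column was used, without the 4 summary lines. Multimapping reads were listed as 0, and whether the reads listed as unmapped include reads with several alignments was not tested.

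The test was that of edgeR 4.0.16, run in R 4.3.3 (filterByExpr, TMM, robust quasi-likelihood F test, 3 W9706 against 3 B73 libraries, Benjamini-Hochberg over 22135 genes). In a run on simulated data it missed part of the changes put in and made some false calls. SE was the log2 fold change divided by the square root of F. The SWEET13 sum was fitted in a table where it replaced its 3 rows. Ratios had 0.5 added to each count and, like shares, were compared by exact permutation tests (scipy 1.17.1). DESeq2 1.42.0 was an alternative. log2 CPM used a prior count of 2.

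Members, lists and alternatives were chosen with earlier results of these data known. Gene names are those given with the identifiers. A naming rule written with the test design added the gene most correlated with the major SWEET13 paralog and that with sut1. The 58 symbols of sucrose transport, sucrose metabolism and leaf cell types had 0 matches to count table identifiers (RefSeq table of Zm-B73-REFERENCE-NAM-5.0) and were not analysed here. Deviations from line means correlated at 0.218, 0.111 and 0.131 between same-numbered libraries, so replicate numbers were also fitted as a block.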

Additional observations from a re-analysis of the deposited data

How the results depend on the processing

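The fall of sweet13b kept its direction and its call in the 15 alternatives run, with log2 fold changes from -2.33 (without B73 replicate 2 and W9706 replicate 1 together) to -1.63 (library size alone) and adjusted p of at most 0.0194. All alternatives used counts from the same deposited alignments. None of them varied how reads of either line were assigned to the paralogs, so that source of difference was not tested. DESeq2 called sut1 (-0.35, adjusted p of 0.0123) and the SWEET13 sum (-0.30, adjusted p of 0.0281), which edgeR did not; the cause was not tested. Library size alone put sweet13a at 0.0038, since it leaves out the TMM factors. sweet13c stayed uncalled in its 15 alternatives. Leaving out a replicate gave log2 fold changes of -0.35 to -0.20 for sweet13a, -2.16 to -1.65 for sweet13b, 0.16 to 0.48 for sweet13c, -0.42 to -0.27 for sut1 and -0.37 to -0.25 for the sum. For the log2 ratio of SWEET13 to sut1 it gave -0.048 to 0.12 (-0.048 without B73 replicate 3 and -0.034 without W9706 replicate 3), so the sign of this ratio rests on single libraries. With the replicate block the log2 fold change of sweet13b was -1.87 (edgeR adjusted p of 0.00623), and the block changed no call of these genes or of the sum. Over all genes 5133 to 10787 were called, against 7564. Directions of the paralog shares and ratios were the same in all alternatives run, although the sweet13a share difference went from 0.211 to 3.15 percentage points without single libraries, and with 3 libraries a line none could reach a p under 0.1. Of the genes near sweet13b in number, tested under these alternatives after the data were seen, Zm00001d023669 also lost its call with no filter (edgeR adjusted p of 0.102), with the first strand column (0.0619) and without B73 replicate 2 and W9706 replicate 1 together (0.168), and Zm00001d023675 with the second strand column (0.203).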
